A study of Mus musculus with 6 samples.

Results

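Of 831 transcripts that the authors listed as different between the testes of mice fed high-fat food and mice fed normal food, 7 belong to Sparc, Col1a1, Colgalt1, Pdgfrb and Col22a1, the matrix and stromal genes described here. They were taken by gene symbol, together with every listed transcript of the same locus. The high-fat group is 3 testis libraries (numbers 10, 11 and 12) from C57BL/6 mice fed high-fat food for 8 weeks, and the normal group is 3 testis libraries (numbers 7, 8 and 9) from C57BL/6 mice fed normal food for 8 weeks. All were strand-specific RNA-seq libraries from 50 mg of tissue. The labels give no age for the mice and do not say that the libraries of a group are separate animals. The spread given here is therefore between libraries and may be partly technical. The design text calls the high-fat mice obese, and no body weight is used here.

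The extracellular matrix of the testis lies in the basement membrane and the collagen layers around the seminiferous tubules, where peritubular myoid cells sit, and in the interstitium around Leydig cells and vessels. Fibrillar collagen chains wind into a triple helix in which glycine recurs in each triplet of residues, and lysines of the helix are hydroxylated and then carry sugars. Colgalt1 encodes the endoplasmic reticulum enzyme that adds the first of these sugars, galactose. SPARC is a secreted calcium- and collagen-binding protein that bears on how matrix is deposited. PDGF receptor beta is the tyrosine kinase receptor of pericytes, smooth muscle and other stromal cells, bound by PDGF-B and PDGF-D. Type XXII collagen is known from tissue junctions such as the one between muscle and tendon.

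The measured values were counts per transcript, not per gene. The listed counts sum to between 427777 and 490603 in the high-fat libraries and to between 362790 and 402866 in the normal libraries, which is part of each library's depth only. Normalized counts are the counts divided by the authors' size factor of each library. The authors' threshold was 0.05 on the adjusted p of their deposited table. The highest adjusted p of a member was 0.0107, for Col1a1, and the highest of any listed transcript was 0.0497. Because the members were chosen from that list, their difference between the diets is described here and was not tested again. Transcripts that the authors did not list were not analysed here.

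On the high-fat diet 4 of the 7 transcripts were higher and 3 were lower. The authors called 0.868% of the transcripts in their deposited comparison, 0.48% higher and 0.387% lower, and since the members come from those calls nothing is read from their own share. The higher ones were the canonical coding transcripts of Sparc, Col1a1, Colgalt1 and Pdgfrb, where canonical means the 1 transcript the deposited table marks as representing its gene. The lower ones were another transcript of Colgalt1, another transcript of Pdgfrb and a short transcript of Col22a1. In all 7 the high-fat and the normal libraries did not overlap, as in 91.3% of the listed transcripts and in 94.4% of the listed canonical coding ones.

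Sparc was the most abundant member. Its transcript ENSMUST00000018737 (gene ENSMUSG00000018593) lies on chromosome 11 from 55394500 to 55420200 of GRCm38, on the minus strand, with 10 exons and 302 codons. Its deposited model begins 120 bases upstream of the start that GENCODE M21 and RefSeq give, which is why the region around this start is shown. The sequence is the RefSeq promoter window of build GRCm38.p6, chr11:55420031-55420330, read 5′ to 3′ on the minus strand. Capitals mark the 120 added bases, and the last 50 bases lie downstream of the annotated start. Searched on both strands, the window has 0 matches to the TATA-box letters TATAAA, which 13.6% of 32851 RefSeq windows of the same length hold. It also has 0 matches to the GC-box letters GGGCGG, which 35.7% of the windows hold.
Sparc promoter: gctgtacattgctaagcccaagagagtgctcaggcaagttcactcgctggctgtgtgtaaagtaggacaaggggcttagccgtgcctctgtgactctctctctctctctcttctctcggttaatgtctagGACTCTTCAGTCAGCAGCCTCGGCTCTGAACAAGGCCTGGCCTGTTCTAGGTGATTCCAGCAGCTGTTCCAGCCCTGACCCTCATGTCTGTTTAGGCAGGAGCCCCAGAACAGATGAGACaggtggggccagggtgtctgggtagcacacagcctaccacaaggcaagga

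Sparc had 7391, 8673 and 7326 counts in high-fat libraries 10, 11 and 12, against 2134, 3740 and 3410 counts in normal libraries 7, 8 and 9. The lowest high-fat library was at 6434 normalized counts and the highest normal library at 3560, so the groups did not overlap, as in 91.3% of the listed transcripts. Sparc averaged 7752 ± 1174 normalized counts on the high-fat diet and 2991 ± 658 on the normal diet (SD, n = 3 each). The fitted log2 fold change was 1.37 ± 0.23 (SE), with a 95% interval of 0.81 to 1.94, which is a 2.59-fold higher level with an interval of 1.75 to 3.83. By summed level over both diets it ranks 12 among the 831 listed transcripts. GENCODE M21 has 9 transcripts of the gene. 3 of the others begin further upstream, at 55420290, 55420325 and 55423183, and none of the 8 others was listed.

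Col1a1 encodes the alpha1 chain of type I collagen, the main fibrillar collagen of connective tissue. Its transcript ENSMUST00000001547 (gene ENSMUSG00000001506) lies on the plus strand of chromosome 11 from 94936224 to 94953042, with 51 exons over 5930 bases. The deposited model has the annotated coordinates. Of its 1453 codons 389 code for glycine, 26.8%. An unbroken run of 338 triplets that each begin with glycine spans codons 168 to 1181. Lysine stands in the last place of 24 of these triplets and in the middle of 12, and lysine in the last place is the kind of residue that carries sugars in collagen once hydroxylated.

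Counts of Col1a1 were 3160, 3957 and 3331 in high-fat libraries 10, 11 and 12, against 1281, 1995 and 1725 in normal libraries 7, 8 and 9. The lowest high-fat value, 2925 normalized counts in library 12, lay above the highest normal value, 1899 in library 8. Col1a1 averaged 3456 ± 519 normalized counts on the high-fat diet and 1617 ± 269 on the normal diet (SD, n = 3 each). The fitted log2 fold change was 1.10 ± 0.23 (SE, 95% interval 0.54 to 1.66), a 2.14-fold higher level.

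**Figure D1:**
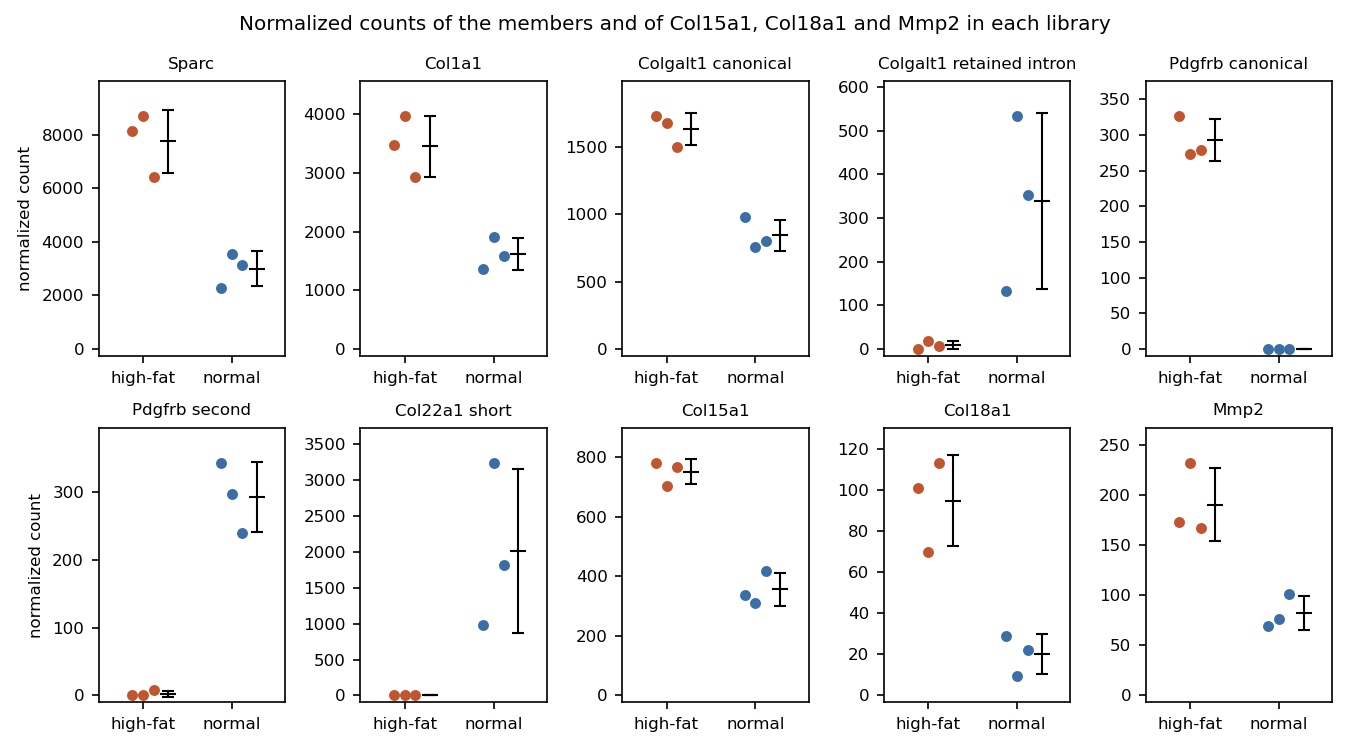
Normalized counts of the 7 member transcripts and of Col15a1, Col18a1 and Mmp2, each point 1 library, high-fat libraries on the left and normal libraries on the right of each panel; the horizontal tick is the mean and the bar ± 1 SD (n = 3). Each vertical axis is linear and has its own range. The libraries of the diets do not overlap in any panel, Pdgfrb canonical is at 0 in the normal libraries, and Col22a1 is at 0 in the high-fat libraries and spreads from 983 to 3237 in the normal ones.

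Sparc and Col1a1 also moved together from library to library. Library 11 was the highest of the high-fat libraries and library 12 the lowest for both, and among the normal libraries 8 was the highest and 7 the lowest for both. The likeness of 2 transcripts is given here as the root mean square difference over the 6 libraries between their log2(normalized count + 1) profiles, each centred on its own mean, so that 0 is the same shape. For a transcript at or near 0 counts in a diet, the added 1 makes this distance depend on level as well as shape. For Sparc the 3 nearest listed transcripts from other loci were Col1a1 at 0.165, the Golgi tethering subunit Cog4 at 0.165 and the matrix metalloproteinase Mmp2 at 0.23, against a median of 1.59 over all candidates. For Col1a1 the nearest were Hsbp1l1 at 0.144, Sparc at 0.165 and the Rab GTPase-activating protein Rabgap1 at 0.189. Every candidate had been listed for a difference between these libraries, so part of this likeness comes from how the table was made. Per kilobase of transcript, the level of Sparc was 5.73, 5.37 and 5.39 times that of Col1a1 in high-fat libraries 10, 11 and 12, against 4.08, 4.59 and 4.84 times in normal libraries 7, 8 and 9. This ratio, which needs no scaling between libraries, averaged 5.50 ± 0.20 on the high-fat diet and 4.51 ± 0.39 on the normal diet (SD, n = 3 each), and the diets did not overlap.

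Colgalt1 has a pair of listed transcripts that went opposite ways, on the plus strand of chromosome 8. The canonical ENSMUST00000047903 (gene ENSMUSG00000034807, 71610998 to 71624911, 12 exons, 617 codons) is the one that codes for the collagen galactosyltransferase. It had 1570, 1676 and 1714 counts in high-fat libraries 10, 11 and 12, against 919, 797 and 870 counts in normal libraries 7, 8 and 9. All high-fat libraries lay at 1505 normalized counts or above and all normal libraries at 977 or below. The canonical transcript averaged 1637 ± 117 normalized counts on the high-fat diet and 846 ± 116 on the normal diet (SD, n = 3 each), a log2 fold change of 0.95 ± 0.24 (SE, 95% interval 0.36 to 1.54).

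The other Colgalt1 transcript, ENSMUST00000212216, is annotated as a retained-intron transcript without a coding sequence. It keeps the intron between the last exons of the canonical transcript and begins the exon before that intron 52 bases earlier. Those 2 stretches are the exon bases that it has and the canonical transcript lacks. In the annotation it also starts later, at 71611171, and ends earlier, at 71623523, and 1561 bases belong to the canonical transcript alone. Both stretches are shown from GENCODE M21 on GRCm38, plus strand, 5′ to 3′. The first is chr8:71623038-71623109, with the 52 added exon bases in capitals. They end in AG, the pair of bases that ends most introns. The second is chr8:71623277-71623512, with the 196 bases of the retained intron, from 71623297 to 71623492, in capitals and 20 bases of exon on each side. The intron begins with GT and ends with AG.
Colgalt1 exon extension: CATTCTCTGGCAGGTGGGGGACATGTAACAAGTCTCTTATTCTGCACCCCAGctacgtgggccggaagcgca
Colgalt1 retained intron: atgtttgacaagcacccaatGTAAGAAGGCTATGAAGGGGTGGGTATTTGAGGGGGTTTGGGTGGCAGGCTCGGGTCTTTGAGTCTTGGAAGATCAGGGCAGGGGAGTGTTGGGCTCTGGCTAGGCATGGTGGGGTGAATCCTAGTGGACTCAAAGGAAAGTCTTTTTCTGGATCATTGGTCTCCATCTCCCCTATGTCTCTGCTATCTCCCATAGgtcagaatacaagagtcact

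The retained-intron transcript had 0, 18 and 7 counts in high-fat libraries 10, 11 and 12, against 124, 560 and 383 counts in normal libraries 7, 8 and 9. It was low in all high-fat libraries and uneven among the normal ones, with library 7 well below libraries 8 and 9. It averaged 8.06 ± 9.16 normalized counts on the high-fat diet and 339 ± 201 on the normal diet (SD, n = 3 each). The fitted log2 fold change was -5.37 ± 1.31 (SE), with a wide 95% interval of -8.58 to -2.15. The deposited model of this transcript runs on to 71624911, 1388 bases beyond the annotated end and to the base where the canonical transcript ends. In that model most of the 1561 bases that the annotation gives to the canonical transcript alone are therefore shared. The nearest profiles to the retained-intron transcript were those of transcripts of the Polycomb subunit Suz12 at 0.42, of Mycbpap at 1.24 and of Arhgef33 at 1.46, against a median of 3.74 over all candidates.

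Of the listed counts at Colgalt1, the retained-intron transcript took 0 of 1570 in high-fat library 10, which allows a share of up to 0.191%. Its share was 1.06% in high-fat library 11 (95% Wilson interval 0.673 to 1.67) and 0.407% in high-fat library 12 (0.197 to 0.837). In the normal libraries its share was 11.9% in library 7 (10.1 to 14.0), 41.3% in library 8 (38.7 to 43.9) and 30.6% in library 9 (28.1 to 33.2). The mean share was 0.490 ± 0.536% on the high-fat diet and 27.9 ± 14.9% on the normal diet (SD, n = 3 each), so no high-fat library came near the lowest normal one. These intervals and limits cover counting error only, and the counts are estimates that divide reads between overlapping models.

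With both transcripts summed, the diet difference at Colgalt1 was smaller. The sum averaged 1645 ± 118 normalized counts on the high-fat diet and 1185 ± 95.2 on the normal diet (SD, n = 3 each). Its range was 1511 to 1729 in high-fat libraries and 1109 to 1292 in normal libraries, and the diets did not overlap. Most of the sum is the canonical transcript, which was listed for being higher, so nothing is read from this separation. The fitted log2 fold change of the sum was 0.47 ± 0.22 (SE) with a 95% interval of -0.07 to 1.01, and with TMM scaling it was -0.02. The canonical transcript was nearest in profile to the signal recognition particle gene Srp54c at 0.146, to Plekhg2 at 0.146 and to the kinesin Kifc1 at 0.158. Its distance was 0.269 to Col1a1 and 0.381 to Sparc. The ratio of Col1a1 to canonical Colgalt1 per kilobase was 1.14 ± 0.121 on the high-fat diet and 1.06 ± 0.300 on the normal diet (SD, n = 3 each), and the diets overlapped.

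Pdgfrb also has a pair of listed transcripts, and here nearly all counts of a library lay on 1 of them. The canonical ENSMUST00000025522 (gene ENSMUSG00000024620) lies on the plus strand of chromosome 18 from 61045150 to 61085061, with 23 exons over 5407 bases and 1099 codons. The second, ENSMUST00000115274, lies from 61045200 to 61085056 with 24 exons over 5423 bases and 1103 codons. They share 5352 exon bases, 99.0% of the canonical transcript and 98.7% of the second. Only 55 bases at the ends belong to the canonical transcript alone. The second alone has an added exon of 71 bases from 61046030 to 61046100, between the first and second exons of the canonical one. Reads that lie within shared exons do not tell the pair apart. The division of counts between them rests on those short stretches and on reads spliced around the added exon, and is uncertain.

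The canonical Pdgfrb transcript had 296, 273 and 318 counts in high-fat libraries 10, 11 and 12, against 0, 0 and 0 counts in normal libraries 7, 8 and 9. It averaged 293 ± 28.8 normalized counts on the high-fat diet (SD, n = 3) and was at least 99.7-fold higher there, taking 3 counts per normal library as the floor. The second transcript had 0, 0 and 9 counts in high-fat libraries 10, 11 and 12, against 323, 312 and 260 counts in normal libraries 7, 8 and 9. The exchange was complete in 5 of the 6 libraries, and high-fat library 12 alone held both. The second transcript averaged 2.64 ± 4.56 normalized counts on the high-fat diet and 293 ± 52.1 on the normal diet (SD, n = 3 each), a fitted log2 fold change of -6.66 ± 1.34 (SE). In high-fat library 12 its share of the Pdgfrb counts was 2.75% (95% Wilson interval 1.45 to 5.15), and the 0 counts of libraries 10 and 11 allow shares of up to 1.01% and 1.10%.

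**Figure D2:**
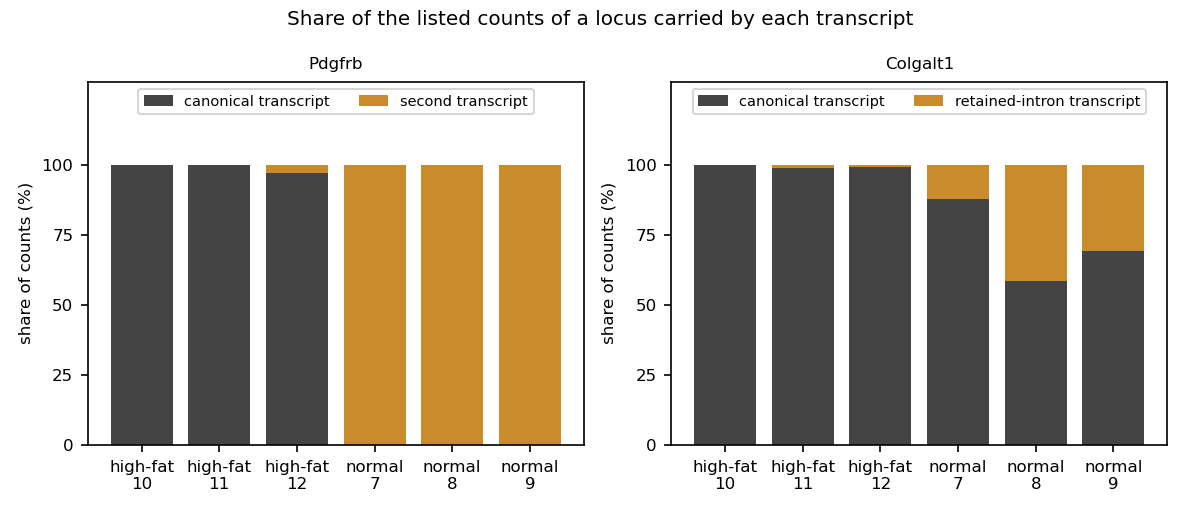
Share of the listed counts of Pdgfrb (left) and Colgalt1 (right) on each transcript, in percent, 1 bar per library, with high-fat libraries 10, 11 and 12 left of normal libraries 7, 8 and 9. Pdgfrb counts lie on the canonical transcript on the high-fat diet and on the second one on the normal diet; the retained-intron transcript of Colgalt1 takes at most 1.06% in a high-fat library and between 11.9% and 41.3% in the normal ones.

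Summed over the pair, Pdgfrb was at nearly the same level on both diets. The sum was 326, 273 and 287 normalized counts in high-fat libraries 10, 11 and 12, against 343, 297 and 240 in normal libraries 7, 8 and 9, and the diets overlapped. It averaged 295 ± 27.3 on the high-fat diet and 293 ± 52.1 on the normal diet (SD, n = 3 each). The log2 fold change of the sum was 0.01 ± 0.32 (SE) with a 95% interval of -0.77 to 0.79, which spans 0.588-fold to 1.73-fold, so a difference of that size was not detectable here, and with TMM scaling the value was -0.48. Loci with listed transcripts of both directions are common in the table, 57.8% of the 64 loci with at least 2 listed transcripts, so opposite directions at 1 locus do not set Pdgfrb and Colgalt1 apart. The canonical Pdgfrb transcript was nearest in profile to Prr11 at 0.445, to a transcript of the membrane skeleton gene Epb41 at 0.618 and to a transcript of Dpf1 at 0.688. Those of Prr11 and Epb41 were also at 0 in all normal libraries, so these distances reflect level as well as shape. The second was nearest to transcripts of 2610318N02Rik at 1.06, Erbin at 1.27 and Mycbpap at 1.29.

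**Figure D3:**
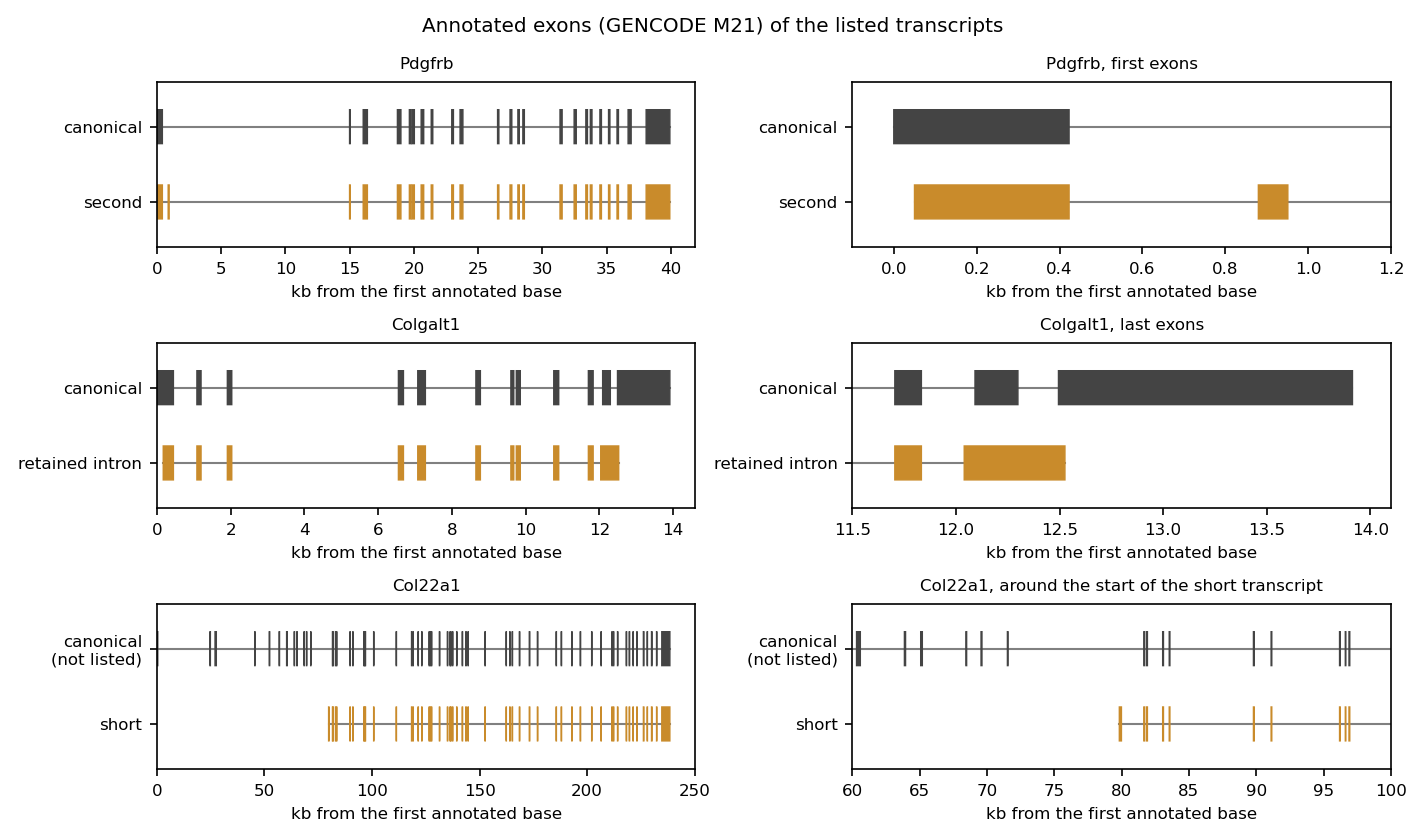
Annotated exons (boxes) of the transcripts at Pdgfrb, Colgalt1 and Col22a1 along their genes, in kb from the first annotated base in the direction of transcription; left panels show the whole gene and right panels the stretch where the transcripts differ, with exons narrower than a line drawn at line width. The Pdgfrb transcripts differ by a 71-base exon near the start, the Colgalt1 retained-intron transcript runs through the intron before the last exon, and the short Col22a1 transcript begins about 80 kb into the gene, after the first exons of the canonical one.

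Col22a1 encodes the chain of type XXII collagen, and its listed transcript is not the canonical one. ENSMUST00000229585 (gene ENSMUSG00000079022) lies on the minus strand of chromosome 15 from 71795795 to 71954410 in the deposited table, with 53 exons over 6926 bases. The annotation gives it a start supported by CAGE, a method that maps capped 5′ ends, and 1058 codons. The canonical ENSMUST00000159993, with 64 exons and 1613 codons, was not listed. The short coding sequence lacks the first 555 codons of the canonical one and is in frame with it. Of its codons 326 code for glycine, 30.8%, against 388 of the 1613 canonical codons, 24.1%, and the longest unbroken run of glycine triplets is 113 in both.

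The first 60 coding bases of the short transcript are shown because they show the glycine repeat of a collagen chain from its first codons on. They are spliced from chr15:71952319-71952528 of GRCm38, minus strand, 5′ to 3′, from GENCODE M21. Capitals mark the start codon and the 6 glycine codons, 1 in each triplet of codons.
Col22a1 short coding start: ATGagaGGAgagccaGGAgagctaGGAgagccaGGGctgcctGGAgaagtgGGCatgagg

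The short Col22a1 transcript had 0, 0 and 0 counts in high-fat libraries 10, 11 and 12, against 924, 3401 and 1975 counts in normal libraries 7, 8 and 9. It averaged 2013 ± 1140 normalized counts on the normal diet (SD, n = 3). On the high-fat diet this transcript was at least 675-fold lower, taking 3 counts per high-fat library as the floor. In the annotation it shares 6763 exon bases, 97.8% of its own, with the canonical transcript, which was not listed. The division of reads between the pair is therefore uncertain, and the level of the whole gene is not known here. The normal libraries differed among themselves, from 983 normalized counts in library 7 to 3237 in library 8. A diet without a single count is seen in 2 of the 7 members, in 30.1% of all listed transcripts and in 30.7% of the annotated ones. The nearest profiles to the short Col22a1 transcript were those of the long noncoding RNA Gm7292 at 0.573, of a transcript of the endocytic adaptor Itsn1 at 0.769 and of a transcript of the sperm gene Ropn1 at 1.21. Those of Gm7292 and Itsn1 were also at 0 in all high-fat libraries, so these distances reflect level as well as shape.

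**Figure D4:**
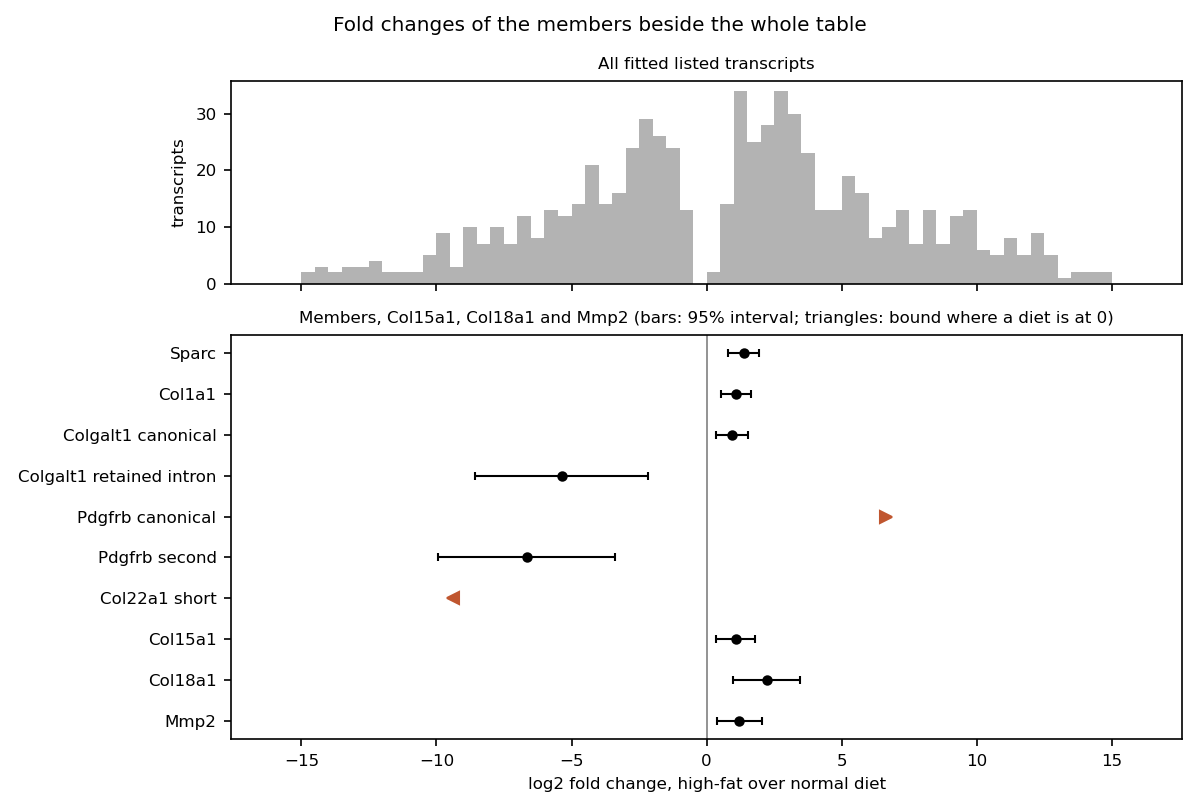
Log2 fold change, high-fat over normal diet. The upper panel is a histogram of all fitted listed transcripts; the lower panel has the member transcripts with Col15a1, Col18a1 and Mmp2 as points with 95% intervals, and triangles for bounds where a diet was at 0. Sparc, Col1a1, canonical Colgalt1, Col15a1 and Mmp2 lie between 0.95 and 1.37, while the transcripts of Pdgfrb and Col22a1 and the retained-intron transcript of Colgalt1 lie beyond 5 in size.

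On a scale of normalized counts per kilobase of transcript, Sparc stood at 3203 ± 485 on the high-fat diet and 1236 ± 272 on the normal diet (SD, n = 3 each). Col1a1 followed with 583 ± 87.5 on the high-fat diet and 273 ± 45.4 on the normal diet. Canonical Colgalt1 had 511 ± 36.5 on the high-fat diet and 264 ± 36.1 on the normal diet, which is within the spread of Col1a1. Among the normal libraries, the short Col22a1 transcript at 291 ± 165 could not be ranked against either. The retained-intron transcript of Colgalt1 was at 2.46 ± 2.79 on the high-fat diet and 103 ± 61.2 on the normal diet. The canonical Pdgfrb transcript was at 54.2 ± 5.33 on the high-fat diet and 0 on the normal diet, and the second at 0.486 ± 0.842 on the high-fat diet and 54.1 ± 9.60 on the normal diet. The short Col22a1 transcript was at 0 on the high-fat diet.

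Beyond the members, 3 other matrix genes had a listed annotated transcript, a share close to that of all coding genes, and those 3 were higher on the high-fat diet. Of the transcripts assembled by the authors, one over the collagen gene Col2a1 was higher and one over the collagen gene Col20a1 was lower. Of 137 further genes in lists of collagens, basement membrane, collagen modification, matricellular proteins, proteoglycans, collagen receptors and matrix proteases, 3 had a listed annotated transcript, 2.19%. Among all annotated coding genes 1.7% had one. The 3 were Col15a1, Col18a1 and Mmp2, all canonical and all higher on the high-fat diet. Of the listed canonical coding transcripts of all genes, 66.3% were higher. Together with the members, the matrix and PDGF lists hold 161 genes with 11 listed transcripts, 7 higher and 4 lower. Of all listed transcripts 55.4% were higher, and most of the 11 are the members, so nothing is read from this split. The 11 had a median log2 fold change of 1.08 in the authors' deposited table. The median of all listed transcripts there was 1.42, and both medians are the same with transcripts at 0 in a diet set to their bound. Of the other gene lists, the 15 other collagens, the 13 glycoproteins and proteoglycans and the 7 collagen receptors had 0 listed annotated transcripts.

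Col15a1 encodes a basement membrane collagen. It had 710, 704 and 876 counts in high-fat libraries 10, 11 and 12, against 319, 328 and 453 counts in normal libraries 7, 8 and 9. The mean was 752 ± 41.3 normalized counts on the high-fat diet and 356 ± 54.7 on the normal diet (SD, n = 3 each), with a log2 fold change of 1.08 ± 0.30 (SE). Col18a1 encodes the basement membrane collagen from which endostatin is cut, and it was much less abundant. It had 92, 70 and 129 counts in high-fat libraries 10, 11 and 12, against 27, 10 and 24 counts in normal libraries 7, 8 and 9, a log2 fold change of 2.23 ± 0.51 (SE). Mmp2 encodes gelatinase A, a protease that cuts basement membrane collagen. Its counts were 157, 232 and 190 in high-fat libraries 10, 11 and 12, against 65, 80 and 110 in normal libraries 7, 8 and 9, a log2 fold change of 1.21 ± 0.34 (SE). For each of the 3 the libraries of the diets did not overlap, as in 94.4% of the listed canonical coding transcripts.

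Of the 6 PDGF ligands and receptors Pdgfrb alone had a listed annotated transcript, and of 14 genes that relay the receptor's signal 1 had one, Plcg1, against the 1.7% of all annotated coding genes. Plcg1 encodes phospholipase C gamma 1, which binds the activated receptor. Its listed transcript ENSMUST00000151590, of the annotated class degraded by nonsense-mediated decay, had 1, 1 and 1 counts in high-fat libraries 10, 11 and 12, against 14, 1 and 358 counts in normal libraries 7, 8 and 9. Normal library 9 holds nearly all of them, and the diets overlap.

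The name peritubular could not be checked against markers of the cells that could carry these genes, since nearly all of those markers were outside the listed transcripts. Of 59 marker genes of peritubular myoid, pericyte, Leydig, Sertoli, endothelial, macrophage, adipocyte and epididymal cells, 1 had a listed annotated transcript. That is 1.69%, close to the 1.7% of all annotated coding genes. It was ENSMUST00000170847 of the Leydig steroid enzyme gene Hsd3b6, with 15, 33 and 5 counts in high-fat libraries 10, 11 and 12, against 1590, 1722 and 8 counts in normal libraries 7, 8 and 9. Normal library 9 lies with the high-fat libraries, so the diets overlap. The defining markers Acta2, Myh11 and Cnn1 of myoid cells and Rgs5 and Cspg4 of pericytes had no listed annotated transcript. A transcript assembled by the authors over Actg2, the smooth muscle gamma-actin gene and a myoid marker, on chromosome 6 from 83512909 to 83528148, had 1119, 1011 and 953 counts in high-fat libraries 10, 11 and 12, against 360, 367 and 500 counts in normal libraries 7, 8 and 9. It was listed for being higher on the high-fat diet, so sharing that direction with Sparc and Col1a1 follows from the listing. Its highest counts were in high-fat library 10 and normal library 9, and those of Sparc and Col1a1 in libraries 11 and 8. Its part in their difference was not tested. In RNA of whole tissue, more cells of a type and more RNA per cell cannot be told apart.

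Of 6 spermatocyte and 7 spermatid marker genes, only Stag3, a cohesin gene of spermatocytes, had listed annotated transcripts, a pair that was lower on the high-fat diet. Among all annotated coding genes 1.7% had one, and nothing is read from a single gene. The retained-intron transcript ENSMUST00000161113 had 2175, 1896 and 2937 counts in high-fat libraries 10, 11 and 12, against 3983, 4873 and 4882 counts in normal libraries 7, 8 and 9. The transcript ENSMUST00000160729 had 11, 17 and 5 counts in the high-fat libraries and 331, 285 and 29 counts in the normal ones. The diets did not overlap for either, as in 91.3% of the listed transcripts. For ENSMUST00000160729 the gap was narrow, 17.0 normalized counts in high-fat library 11 against 26.7 in normal library 9. The 2 transcripts assembled over Stag3 were also lower. A transcript assembled by the authors over Piwil1, another spermatocyte marker, was higher in the high-fat libraries, at 147, 270 and 186 counts, against 34, 78 and 30 counts in normal libraries 7, 8 and 9. The part of these transcripts in the differences of the matrix genes was not tested.

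Transcripts assembled by the authors also lie over further list genes. One over Col2a1, the chain of cartilage collagen, had 2517, 3195 and 0 counts in high-fat libraries 10, 11 and 12, against 0, 3 and 0 counts in normal libraries 7, 8 and 9, so its difference rests on libraries 10 and 11. One over Col20a1, which also overlaps other genes, had 0, 0 and 0 counts in the high-fat libraries and 3994, 2262 and 2211 counts in the normal ones. One over Shc1, an adaptor of receptor tyrosine kinases, had 135, 546 and 255 counts in the high-fat libraries and 41, 54 and 40 counts in the normal ones, and it overlaps a further gene.

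The authors also deposited set tables with 35 gene sets, and 27 of them hold at least 1 of the members. In the authors' deposited tables Pdgfrb is in 21 sets, Col1a1 in 15, Sparc in 14, Col22a1 in 1 and Colgalt1 in 0. The set with the most matrix genes is the Gene Ontology term vasculature development, which holds Pdgfrb, Sparc, Col1a1, Col15a1, Col18a1 and Mmp2 among 19 listed genes. The authors' deposited table has 15 of these 19 at a higher mean in high-fat libraries and 4 at a lower one, with a p-value of 0.00714 and a q-value of 0.542. The network neighbourhood of the matrix glycoprotein tenascin-X holds Pdgfrb, Sparc, Col1a1 and Col15a1 among 21 listed genes, with a p-value of 0.000131 and a q-value of 0.324 in the authors' deposited table. The q-values of these sets are far from 0.05. The sets were built from the same list of called transcripts, so they are no separate evidence for the members.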

How the data were processed

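Testis RNA was sequenced in 6 libraries, 3 per diet. Per the submitters' processing notes, Trimmomatic, HISAT2, StringTie and DESeq were used with build GRCm38; versions are not given there. The deposited comparison table holds 831 called transcripts, 1 line each. It gives estimated counts as whole numbers, per the file headers, and the authors' scaled counts, rounded and treated here as a score. It also gives the authors' mean signal over all libraries (not used), p-value before and after adjustment, log2 fold change and ratio (fold). The number of transcripts the authors tested, 95751, was inferred from how much the adjustment raised each p. The deposited set tables give a p-value and q-value per set.

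Size factors, 0.908 to 1.14 on the high-fat and 0.940 to 1.09 on the normal diet, were recovered as count over scaled count at counts of at least 5000. Folds come from edgeR 4.0.16 in R 4.3.3 (quasi-likelihood fit, filterByExpr with a minimum count of 10) on the whole table, with these factors as offsets. This fit was tested on simulated data. No p was read for a member. A diet at 0 counts gives a bound against 3 counts per library. Alternatives were TMM, DESeq2 1.42.0 (size factors and fit), the listed sum, no filter, limma-voom 3.58.1 and each library left out.

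Named were all transcripts of the members' loci, the 3 nearest profiles of each member (mean normalized count of at least 100, another locus) and every list gene with a listed annotated transcript. Transcripts assembled over list genes are named as an alternative. The members and lists were chosen with earlier results of these data known. Of 233 list genes 232 are in GENCODE M21. No batch is given in the labels.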

Additional observations from a re-analysis of the deposited data

How the results depend on the processing

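Scaling is the main limit. TMM, DESeq2 median-ratio factors and the listed sum shift the log2 fold change of the whole table by medians of -0.49, -0.52 and -0.24, since a table of called transcripts gives no unchanged majority to scale on. In that order of the 3 scalings, Col1a1 was at 0.60, 0.55 and 0.85, canonical Colgalt1 at 0.46, 0.42 and 0.71, the bound of canonical Pdgfrb at 6.15, 6.11 and 6.39 (6.64 as reported), the Colgalt1 sum at -0.024, -0.061 and 0.22, and the Pdgfrb sum at -0.48, -0.51 and -0.24. Sparc was at 0.87 with TMM and 0.83 with median-ratio factors. Outside the members, Col15a1 was at 0.58, 0.55 and 0.83 and Mmp2 at 0.72, 0.66 and 0.97 in the same order of scalings. The Colgalt1 sum was thus slightly below 0 with TMM and median-ratio factors and above 0 with the listed sum, as in the reported fit. The Pdgfrb sum, close to 0 as reported, was below 0 with all 3 scalings. The 95% intervals of both sums span 0. Of 114 recomputed fold changes or bounds of single transcripts, 98 moved by less than that transcript's own spread between libraries. So did 18 of 24 of the sums. That spread was wide, at 1.7 log2 units for the retained-intron transcript of Colgalt1 and 1.3 for the second Pdgfrb transcript. There, larger moves still counted as within the spread. No member transcript changed direction under these alternatives.

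With each library left out in turn, the log2 fold change ranged from 1.21 to 1.52 for Sparc, 0.99 to 1.23 for Col1a1, 0.88 to 1.07 for canonical Colgalt1, -6.68 to -4.80 for its retained-intron transcript, 0.43 to 0.54 for the Colgalt1 sum, -6.80 to -6.13 for the second Pdgfrb transcript and -0.12 to 0.14 for the Pdgfrb sum. The bounds ranged from 6.56 to 6.70 for canonical Pdgfrb and from -9.73 to -8.88 for Col22a1.

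With the threshold on the authors' deposited adjusted p lowered to 0.01, the matrix and PDGF lists kept 7 of 11 transcripts and the somatic marker lists 0 of 1; with assembled transcripts the counts were 14 and 2. Of the 21 nearest transcripts 18 were shared with a pseudocount of 10 and 14 with a minimum mean of 20. No paired analysis was possible because the library numbers of the diets are not shared.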
